A study of Homo sapiens with 4 samples.

Results

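The genes described here encode 6 proteins on the surface of neuroblastoma cells that antibodies, conjugates or engineered T cells have been raised against: GPC2, CD276, L1CAM, NCAM1, DLK1 and CD47. They were taken by name from the count table of an RNAseq experiment, and all 6 were among its 60612 gene IDs and among the 17537 genes with enough reads to be tested. The cells were IMR-32, a MYCN-amplified neuroblastoma line of human origin, stably transduced with a hairpin that doxycycline switches on. The hairpin was a control (shControl, 2 libraries) or targeted NEUROD1 (shNeuroD1, 2 libraries), and all 4 libraries come from cells kept for 48 h in 1 µg/mL of doxycycline. The labels give the shControl cells a parental genotype in one field and the control hairpin in the title. In the study's own table of this comparison both knockdown columns are named for the second of its NeuroD1 hairpins, whereas the sample titles number the knockdown libraries shNeuroD1-1 and shNeuroD1-2, which are also the names of 2 different hairpins, so whether 1 hairpin or 2 were used cannot be told. It is not stated whether the libraries of a group came from separate cultures, and p-values measure only the spread between these libraries. The question addressed here is how transcripts of the surface targets differed when NEUROD1, a neurogenic basic helix-loop-helix transcription factor, was knocked down.

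Surface antigens of neuroblastoma are attractive because the tumor arises from the neural crest and keeps proteins of the developing nervous system that most adult tissues have turned off. GPC2 (glypican 2) is a heparan sulfate proteoglycan tethered to the membrane by a glycosylphosphatidylinositol (GPI) anchor, and CD276 (B7-H3) is an immune checkpoint molecule of the B7 family. L1CAM and NCAM1 are immunoglobulin-type adhesion molecules of growing axons. DLK1 is a membrane protein related to the Notch ligands, encoded in an imprinted cluster and found on progenitor and chromaffin-type cells. CD47 is the "do not eat me" signal that engages SIRPA on macrophages. What is measured here is RNA, and the amount of protein at the surface was not measured.

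The libraries held 14665210 to 16482463 counted reads each. NEUROD1 itself was counted 6174 and 6582 times in shControl and 969 and 886 times in shNeuroD1, which left 14.6% of the control level (log2 fold change -2.77, SE 0.050, adjusted p = 8.6e-29 by edgeR's quasi-likelihood test). Of 9 markers of the adrenergic neuroblast, all passed the count filter, and their summed level was 2222 to 2243 CPM (counts scaled to a common library size) in shControl and 2066 to 2102 CPM in shNeuroD1. The catecholamine enzymes TH and DBH were low among them and were called in opposite directions. Mean TH went from 0.969 CPM in shControl to 5.49 CPM in shNeuroD1 (log2 2.48), and mean DBH from 1.54 to 0.756 CPM (log2 -1.01). None of 5 leukocyte markers passed the filter, and their sum stayed between 0.197 and 0.657 CPM, with CD3E at 0 in all 4 libraries. Summed levels were 1.38 to 1.8997 CPM for 4 endothelial markers and 5.42 to 10.1 CPM for 5 Schwann cell markers. The 8 mesenchymal markers summed to 341 and 348 CPM in shControl and 608 and 616 CPM in shNeuroD1, with VIM at 241 and 547 CPM, PRRX1 at 0 throughout, and SNAI2, FN1, COL1A1 and YAP1 lower. Mitochondrial transcripts took 4.37% and 4.59% of reads in shControl and 5.39% and 5.51% in shNeuroD1. The part of these shifts in the results below was not tested.

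NEUROD1 knockdown went with higher GPC2, CD276, L1CAM and DLK1 transcripts and with lower NCAM1 and CD47 transcripts. All 6 passed the threshold of an adjusted p of 0.05, 4 of them higher and 2 lower, while 55% of all genes tested passed it in either direction (26.8% higher and 28.2% lower). A call at this threshold therefore did not set the surface targets apart from the transcriptome, and the sizes of the changes are given for each below. The same shares are the background for every count of called genes in the related lists below. Only DLK1 also changed by more than 1 on the log2 scale, where 8.79% of all genes tested were higher and 5.14% lower. The median log2 fold change was 0.36 over the 6 targets and 0.0084 over all genes tested. In bulk RNA, a change in the number of cells of a type and a change in RNA per cell cannot be told apart.

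**Figure D1:**
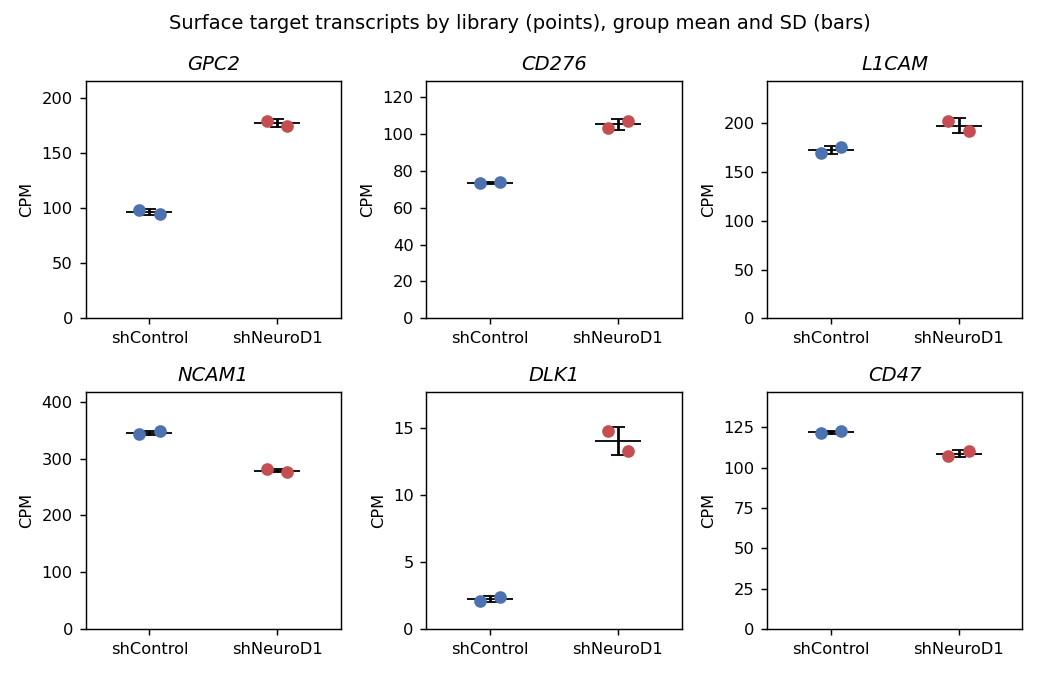
Normalized level (CPM, y axis from 0) of each surface target in the 2 shControl and 2 shNeuroD1 libraries, 1 panel per gene; points are libraries, horizontal bars the group mean and whiskers the SD. In every panel the groups are apart: GPC2, CD276, L1CAM and DLK1 lie higher in shNeuroD1 and NCAM1 and CD47 lower, with DLK1 at 2.10 and 2.39 CPM against 14.8 and 13.3 CPM.

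GPC2 showed the largest gain among the targets that were abundant at the start. GPC2 (chr7:100169606-100177372, minus strand, GRCh38) had 1451 and 1497 reads in shControl and 2730 and 2654 in shNeuroD1. On the CPM scale it stood at 98.4 and 94.3 against 179 and 174, so that the lower knockdown library exceeded the higher control. The mean level rose 1.84-fold, from 96.4 ± 2.95 to 177 ± 3.65 CPM (SD, n = 2), a log2 fold change of 0.88 (SE 0.049, adjusted p = 3.1e-16, edgeR). This change was higher than that of 88.7% of all genes tested. The deposited transcript tables placed nearly all GPC2 transcripts at a first exon of chr7:100177034-100177381, with 23.6 and 14.5 FPKM (fragments scaled to transcript length and library size) in shControl and 49.8 and 41.6 FPKM in shNeuroD1. The upstream end of that exon is the RefSeq start site, and the window around it is shown because it is the main GPC2 start and its sequence holds the kind of E-box that NEUROD1 is known to bind. It runs 5′ to 3′ from 250 bases before to 50 bases after the start (chr7:100177332-100177631, minus strand, GRCh38.p14, RefSeq), with E-boxes (CANNTG, which reads the same pattern on both strands) in capitals.
GPC2 promoter: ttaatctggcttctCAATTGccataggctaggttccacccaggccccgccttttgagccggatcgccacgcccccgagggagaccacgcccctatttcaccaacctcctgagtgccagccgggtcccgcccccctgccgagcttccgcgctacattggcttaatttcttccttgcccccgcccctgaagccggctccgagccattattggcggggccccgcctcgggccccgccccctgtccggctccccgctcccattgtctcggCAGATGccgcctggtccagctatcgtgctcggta

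The window held 2 E-boxes, CAATTG at -236 and CAGATG at 17 counted from the start site. CAGATG, or CATCTG on the other strand, was present in 14.7% of 35116 RefSeq promoter windows of the same length, and any CANNTG in 68.7%. Promoter windows were matched for 4 of the 6 targets. Both overlapping windows of L1CAM also held CAGATG, together with CAGCTG, which 17.9% of windows hold. These windows lie at the L1CAM start that had fewer transcripts in 3 of 4 libraries, and none was matched at the other start. By contrast, the 2 windows of CD276 and the window of CD47 held no CANNTG. A match of letters is a description of the window and does not show binding.

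The genes that build and anchor GPC2 did not follow one direction. Of 4 other glypicans tested, none was called higher, GPC1 fell from 73.7 to 39.9 CPM (log2 -0.88, adjusted p = 3.9e-13), the sparse GPC4 fell from 1.24 to 0.427 CPM (log2 -1.52), and GPC3 and GPC6 gave log2 values of 0.12 (adjusted p = 0.37) and -0.0050 (adjusted p = 0.96). A list of related genes covered heparan sulfate synthesis, trimming and GPI anchoring and also held the growth factors PTN and MDK. Of its 23 tested genes, 10 were higher, 8 lower and 5 not called (median log2 0.12). Leaving out 1 library gave 4 higher and 4 lower without shControl replicate 1, 5 and 4 without shControl replicate 2, 6 and 5 without shNeuroD1 replicate 2, and 9 and 8 without shNeuroD1 replicate 1, and DESeq2 gave 6 and 5. Among the higher ones, the sulfotransferase HS6ST2 went from 19.0 to 31.7 CPM (log2 0.74) and PTN, a heparin-binding growth factor, from 20.8 to 41.4 CPM (log2 0.99). MDK, the midkine growth factor that binds GPC2, was counted 5410 and 5622 times in shControl and 4585 and 4698 times in shNeuroD1 (log2 -0.24, SE 0.042, adjusted p = 1.1e-05). The groups did not overlap for MDK, and GPC2 and its ligand thus moved in opposite directions.

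CD276 rose by a smaller amount. CD276 (chr15:73683966-73714518, plus strand) had 1079 and 1173 reads in shControl and 1571 and 1635 in shNeuroD1, or 73.2 and 73.9 CPM against 103 and 107 CPM. The groups were apart, and the mean was 1.43-fold higher after knockdown (log2 0.52, SE 0.054, adjusted p = 8.4e-10, edgeR). The human protein exists in a long form, with duplicated immunoglobulin-like domains, and a short form, and the long form depends on exons chr15:73702772-73703086 and chr15:73703659-73703997. These exons of 315 and 339 bases are coding throughout, and the annotated reading frame is 534 codons with them (CD276-202) and 316 codons without them (CD276-201). Transcripts with both exons were listed at 10.7 and 11.1 FPKM in shControl and 20.9 and 9.67 FPKM in shNeuroD1. Transcripts lacking both were listed at 0.541 and 3.67 FPKM in shControl, at 0.672 FPKM in shNeuroD1 replicate 2, and not at all in replicate 1. A further form, listed with chr15:73702772-73702878 included and the second of these exons left out, had 1.58 FPKM in shControl replicate 2 and 16.4 FPKM in shNeuroD1 replicate 2 and was not listed in the other 2 libraries. The forms thus differed between the replicates of a group, and in shNeuroD1 replicate 2 the form with both exons was not the most abundant.

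CD276 belongs to a family in which most members were silent in IMR-32. Only 4 of 11 other B7-related genes passed the count filter, and 3 of these were higher. NCR3LG1 (B7-H6), the ligand of the natural killer cell receptor NKp30, had 864 and 1121 reads in shControl and 2073 and 2238 in shNeuroD1 (log2 1.13, SE 0.063, adjusted p = 2.6e-16). BTN3A1 went from 21.5 to 32.8 CPM (log2 0.61), and VTCN1 (B7-H4) was near the detection limit at 0.586 and 1.81 CPM. CD274, the gene of PD-L1, had at most 1 read in any library, and CD80 had none.

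L1CAM changed little. L1CAM (chrX:153861514-153886174, minus strand) had 2505 and 2784 reads in shControl and 3087 and 2927 in shNeuroD1, or 170 and 175 CPM against 203 and 192 CPM. The groups did not overlap, but the gap between the nearest libraries was narrow, and the mean was 1.14-fold higher in shNeuroD1 (log2 0.19, SE 0.046, adjusted p = 0.00059). The call was lost without shControl replicate 1 (adjusted p = 0.075) and without shNeuroD1 replicate 1 (adjusted p = 0.068), within a range of 1.1e-06 to 0.999 over all alternatives. The top of that range came from the deposited FPKM, where L1CAM stood at 26.04 and 11.6 in shControl and 17.2 and 17.6 in shNeuroD1 and the log2 fold change was -0.00071. Transcripts with the exon chrX:153867800-153867910 were alone listed at 25.8 and 10.6 FPKM in shControl and 19.2 and 14.3 FPKM in shNeuroD1. In shNeuroD1 replicate 1 this exceeded the summed starts, so that sum is not a full measure of the L1CAM level. Transcripts began at 2 first exons, chrX:153886065-153886173 with 23.8 and 5.42 FPKM in shControl and 12.01 and 11.7 FPKM in shNeuroD1, and chrX:153875761-153875944 with 2.10 and 6.05 against 4.79 and 5.52 FPKM. The 2 control libraries thus divided L1CAM transcripts between the starts in very different ratios.

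L1CAM and NCAM1 both carry short exons known for their use in neurons, and CD47 carries short exons in its cytoplasmic tail. Their sequences are shown because they decide which form of each target the cell makes. Each is given 5′ to 3′ on the strand of the gene from GENCODE 29 transcripts (GRCh38), with the exon in capitals and 10 bases of each neighboring exon in lower case.
L1CAM exon of 15 bases, chrX:153873228-153873242: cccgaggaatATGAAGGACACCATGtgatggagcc
L1CAM exon of 12 bases, chrX:153863368-153863379: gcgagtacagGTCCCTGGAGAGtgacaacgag
NCAM1 exon of 30 bases, chr11:113221296-113221325: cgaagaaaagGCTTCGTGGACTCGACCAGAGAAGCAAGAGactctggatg
CD47 exon of 25 bases, chr3:108050578-108050602: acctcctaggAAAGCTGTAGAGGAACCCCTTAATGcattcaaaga
CD47 exon of 33 bases, chr3:108049619-108049651: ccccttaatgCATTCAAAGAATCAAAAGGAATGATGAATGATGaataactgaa

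All 5 exons are coding throughout. The L1CAM exons add 5 and 4 codons and the NCAM1 exon adds 10, so that these leave the reading frame intact, whereas the 25-base exon of CD47 does not. L1CAM transcripts with the 15-base exon, which lies in the part outside the cell, were listed at 0.988 FPKM in shControl replicate 2 and 3.21 FPKM in shNeuroD1 replicate 2 and were not listed in the other 2 libraries. Transcripts without it were listed at 25.9 and 10.1 FPKM in shControl and 16.7 and 13.9 FPKM in shNeuroD1. The 12-base exon, known for the endocytosis signal it completes in the cytoplasmic tail, was listed as a separately spliced exon only in shNeuroD1 replicate 2, at 1.34 FPKM. A longer exon that holds these bases and reads on through the neighboring intron, chrX:153863368-153863549, was listed at 3.27 FPKM in shControl replicate 1, at 2.56 and 19.98 FPKM in shNeuroD1, and not in shControl replicate 2. The form skipping the 12 bases was listed at 22.4 and 10.6 FPKM in shControl and 16.9 and 12.99 FPKM in shNeuroD1. Most listed L1CAM transcripts thus lacked the 15-base exon in all 4 libraries. The form skipping the 12 bases was listed above the longer exon in all but shNeuroD1 replicate 2, where the longer exon was higher. Its 19.98 FPKM there also exceeds the 17.6 FPKM summed over the L1CAM starts of that library, so its share of L1CAM transcripts cannot be told.

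**Figure D2:**
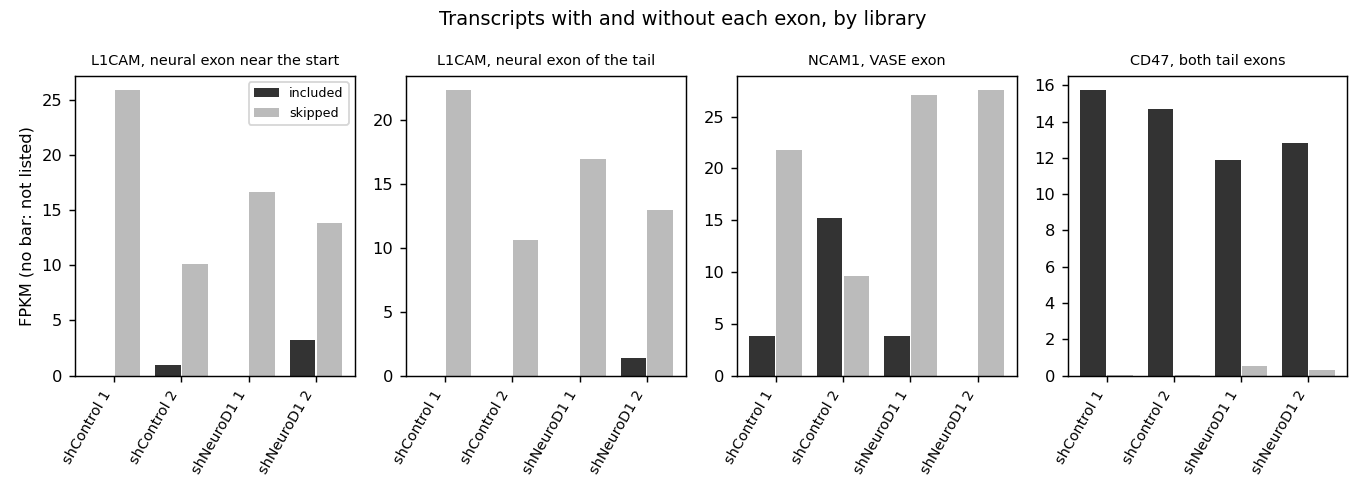
FPKM (y axis from 0) of transcripts with (dark) and without (light) the exon named above each panel, in each library; a missing bar means that the form was not listed in that library. The separately spliced neural exons of L1CAM are listed below their skipped forms in every library, inclusion of the NCAM1 VASE exon differs between the control replicates at 3.81 and 15.3 FPKM, and nearly all CD47 transcripts include both tail exons.

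NCAM1, the most abundant of the targets by read number, fell. NCAM1 (chr11:112961247-113278436, plus strand) had 5056 and 5528 reads in shControl and 4275 and 4210 in shNeuroD1, or 343 and 348 CPM against 281 and 276 CPM. Both knockdown libraries lay under both controls, at 80.7% of the control mean (log2 -0.31, SE 0.042, adjusted p = 1.4e-07, edgeR). In the deposited FPKM, summed over starts, the groups overlapped (23.6 and 25.5 against 23.3 and 24.7), and the log2 fold change of -0.032 was not called (limma adjusted p = 0.87). Transcripts skipping the exon chr11:113272933-113273748 were alone listed at 20.5 and 20.4 FPKM in shControl and 31.1 and 27.7 FPKM in shNeuroD1, higher after knockdown. In shNeuroD1 these values exceeded the summed starts, so that sum is not a full measure of the NCAM1 level. The main first exon, chr11:112961247-112961664, was listed at 16.5 and 18.9 FPKM in shControl and 14.9 and 13.8 FPKM in shNeuroD1 (log2 -0.28 on the log2(FPKM + 1) scale, limma adjusted p = 0.36). A second start inside the gene, chr11:113260181-113260323, was listed at 6.69 and 6.18 FPKM in shControl and 7.98 and 8.33 FPKM in shNeuroD1 (log2 0.30, adjusted p = 0.32). The main start was lower and the internal start higher in both knockdown libraries, but neither difference passed the test, in which 0.00302% of 33090 starts and ends did.

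The VASE exon of NCAM1, the 30-base insert shown above, is known to restrain the growth-promoting activity of the protein. Transcripts with it were listed at 3.81 and 15.3 FPKM in shControl and at 3.86 FPKM in shNeuroD1 replicate 1, and were not listed in shNeuroD1 replicate 2. Transcripts without it were listed at 21.8 and 9.58 FPKM in shControl and 27.1 and 27.6 FPKM in shNeuroD1. The share with the exon was 14.9% and 61.4% in the control replicates, a spread that leaves no difference between groups detectable. A coding exon of 816 bases, chr11:113272933-113273748, was included in 24.6% and 23.2% of listed FPKM in shControl and in 20.4% and 22.4% in shNeuroD1. Transcripts with it were listed at 6.69 and 6.18 FPKM in shControl and 7.98 and 8.01 FPKM in shNeuroD1. These are nearly the values of the internal start, so the 2 may describe the same transcripts and are not separate observations. NCAM1 also lies opposite NCAM1-AS1 (80, 126, 124 and 96 reads in shControl 1 and 2 and shNeuroD1 1 and 2), whose reads could be exchanged with those of NCAM1 if strand was not used in counting, and this is few beside the reads of NCAM1. L1CAM-AS1 had 11 to 24 reads in the same way.

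Adhesion partners of L1CAM and NCAM1 moved in both directions. Of 14 related genes tested, 8 were higher and 4 lower (median log2 0.32). ANK2, the ankyrin that ties L1CAM to the spectrin skeleton, had 1733 and 2207 reads in shControl and 5366 and 5709 in shNeuroD1 (log2 1.502, SE 0.054, adjusted p = 3.5e-21). ITGB1, the beta subunit of integrins that bind L1CAM, had 6245 and 6665 reads in shControl and 3103 and 3089 in shNeuroD1 (log2 -1.05, SE 0.042, adjusted p = 5.4e-20). The contactins were divided, with CNTN1 higher (57.3 to 106 CPM, log2 0.88) and CNTN2, a binding partner of both adhesion molecules, lower (160 to 87.7 CPM, log2 -0.86). Among the closest relatives of L1CAM, NFASC was higher (log2 0.49, adjusted p = 1.0e-08), while NRCAM and CHL1 were not called, at log2 values of -0.0019 and -0.23. NCAM2, the relative of NCAM1, was higher (log2 0.66, adjusted p = 0.00025).

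Polysialic acid, the long sugar polymer carried mainly by NCAM1, is made by ST8SIA2 and ST8SIA4. ST8SIA2 had 888 and 948 reads in shControl and 815 and 865 in shNeuroD1 (log2 -0.12, adjusted p = 0.10), and ST8SIA4 had 104 and 120 against 191 and 139 (log2 0.57, SE 0.16, adjusted p = 0.0029). ST8SIA2 thus remained the more abundant in CPM, and the ST8SIA4 call was lost in 7 of 12 alternatives, with adjusted p between 5.0e-05 and 0.33. Of 7 tested genes of this pathway, only ST8SIA4 and CMAS, which activates sialic acid, were called, both higher. The CMAS groups overlapped (58.1 and 54.03 CPM against 57.5 and 69.02 CPM), and the count of higher genes in this list fell to 0 under DESeq2, with no count filter and without either shControl library, and to 1 without either shNeuroD1 library. L1CAM, NCAM1 and DLK1 are also cut from the surface by proteases. The sheddase ADAM10 had 2881 and 3319 reads in shControl and 2390 and 2297 in shNeuroD1 (log2 -0.39, SE 0.047, adjusted p = 1.6e-08), while ADAM17 gave 63.2 and 61.1 CPM against 69.4 and 68.6 CPM (log2 0.15, adjusted p = 0.030). The ADAM17 call was lost without any 1 of the 4 libraries (adjusted p 0.075 to 0.17). RHBDF2, the iRhom that matures ADAM17, rose from 62 and 72 reads to 251 and 263 (log2 1.95, SE 0.15, adjusted p = 6.1e-13). Of 12 tested genes of shedding proteases, their partner proteins and the inhibitor TIMP3, 4 were higher and 3 lower (median log2 0.013). The iRhom gene RHBDF2 was among the higher and TIMP3 (log2 -0.45) among the lower.

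DLK1 changed most and from the lowest level. DLK1 (chr14:100725705-100738224, plus strand) had 31 and 38 reads in shControl and 225 and 203 in shNeuroD1, or 2.10 and 2.39 CPM against 14.8 and 13.3 CPM. The groups were far apart, the mean being 6.25-fold higher after knockdown (log2 2.64, SE 0.18, adjusted p = 4.8e-14, edgeR), above that of 99.0% of genes tested. Nearly all DLK1 transcripts in the deposited tables began at chr14:100726892-100727135, with 0.379 and 0.294 FPKM in shControl and 3.06 and 0.959 FPKM in shNeuroD1. Both knockdown libraries lay above both controls on both scales, but the 2 knockdown libraries differed 2.99-fold in summed FPKM and only 1.11-fold in CPM.

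DLK1 did not rise alone in its neighborhood. MEG3, the long noncoding RNA expressed from the other parental copy of the same imprinted cluster, had 1554 and 1762 reads in shControl and 8702 and 9031 in shNeuroD1. MEG3 thus went from 108 to 583 CPM (log2 2.43, SE 0.046, adjusted p = 2.0e-28), a change close in size to that of DLK1. Downstream in the cluster, MEG8 went from 1.48 to 4.402 CPM (log2 1.58, SE 0.27, adjusted p = 1.1e-05), RTL1 had 2 and 0 reads in shControl and 4 and 4 in shNeuroD1, and DIO3 had 0 and 0 against 0 and 2. BEGAIN, on the other side of DLK1, went from 8.99 to 13.1 CPM (log2 0.54, adjusted p = 0.00090). The 4 genes of the cluster with enough reads to test, DLK1 included, were therefore all called higher, as were 26.8% of all genes tested. DLK2, the paralog of DLK1 on another chromosome, had 73 and 89 reads against 86 and 115 (log2 0.32, adjusted p = 0.15). DLK2 was called without shNeuroD1 replicate 1 (log2 0.51, adjusted p = 0.040) and under library size alone (log2 0.43, adjusted p = 0.049), within adjusted p of 0.040 to 0.77 over all alternatives, and gave log2 0.096 without shNeuroD1 replicate 2.

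Other Notch pathway ligands and receptors were mixed. JAG2, an activating ligand, had 224 and 260 reads in shControl and 856 and 948 in shNeuroD1 (log2 1.91, SE 0.084, adjusted p = 5.9e-19). The receptor NOTCH1 was higher (5.72 to 11.1 CPM, log2 0.95), and NOTCH3 was lower (29.1 to 22.2 CPM, log2 -0.39). The inhibitory ligand DLL3, itself a target of antibody drugs, fell from 35.5 to 29.4 CPM (log2 -0.27, adjusted p = 0.0054). Over the 11 tested genes of the DLK1 cluster and Notch list, 6 were higher and 3 lower (median log2 0.54).

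CD47 fell slightly. CD47 (chr3:108043094-108091862, minus strand) had 1786 and 1946 reads in shControl and 1628 and 1676 in shNeuroD1, or 121 and 123 CPM against 107 and 110 CPM. The groups did not overlap, and the mean was 89.1% of control (log2 -0.17, SE 0.050, adjusted p = 0.0050, edgeR). The call was lost when counts were scaled by library size alone (log2 -0.055, adjusted p = 0.36), a scaling under which the median of all genes tested moved to 0.12. It was also lost without shControl replicate 2 (adjusted p = 0.051) and without shNeuroD1 replicate 1 (adjusted p = 0.10), within a range of 0.0030 to 0.36 over all alternatives. The deposited FPKM of the single start stood at 15.8 and 14.7 in shControl and 12.4 and 13.1 in shNeuroD1, with the same direction and a limma adjusted p of 0.32.

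The tail of CD47 is spliced in several forms, and the form with both short exons shown above (CD47-202, 323 codons) is known from neural tissue, while a form lacking both (CD47-201, 305 codons) prevails in many other cells. In IMR-32 transcripts with both exons were listed at 15.7 and 14.7 FPKM in shControl and 11.9 and 12.8 FPKM in shNeuroD1. Transcripts lacking both were listed at 0.0166 and 0.0233 FPKM in shControl and 0.533 and 0.295 FPKM in shNeuroD1. The share with both exons was therefore 99.9% and 99.8% in the controls, against 95.7% and 97.8% after knockdown. The long tail was the main form in all 4 libraries, and the share without it was higher in both knockdown libraries. CD47, the 816-base exon of NCAM1 and the exon chr7:100175572-100175894 of GPC2 (99.0% and 98.7% against 99.7% and 99.6% included) were the 3 choices with both forms listed in all 4 libraries. The groups did not overlap in any of the 3, but they also did not overlap in 36.3% of 7058 such choices over all genes, and an exact permutation test of 2 against 2 libraries cannot give a two-sided p under 0.333.

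Genes related to CD47 differed widely in level in IMR-32, with shControl means of tested genes from 1.06 CPM for THBS1 to 793 CPM for CD24. SIRPA, the receptor of CD47, had 28 and 26 reads in shControl and 35 and 37 in shNeuroD1 (log2 0.42, adjusted p = 0.24). QPCTL, the enzyme that modifies the CD47 end that SIRPA binds, had 143 and 155 reads against 166 and 173 (log2 0.19, adjusted p = 0.23). Neither passed the test. Of 12 tested genes of this list, 2 were higher and 3 lower: THBS2, a thrombospondin, with 11 and 25 reads against 200 and 224 (log2 3.56, SE 0.22), UBQLN2 at log2 0.79, UBQLN1 at -0.47, ELAVL1, an RNA-binding protein known to act on the long CD47 mRNA, at -0.64, and CALR, the opposing "eat me" signal, at -0.18. B2M and CD24, further signals read by macrophages, gave log2 values of 0.049 and 0.033 and were not called.

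**Figure D3:**
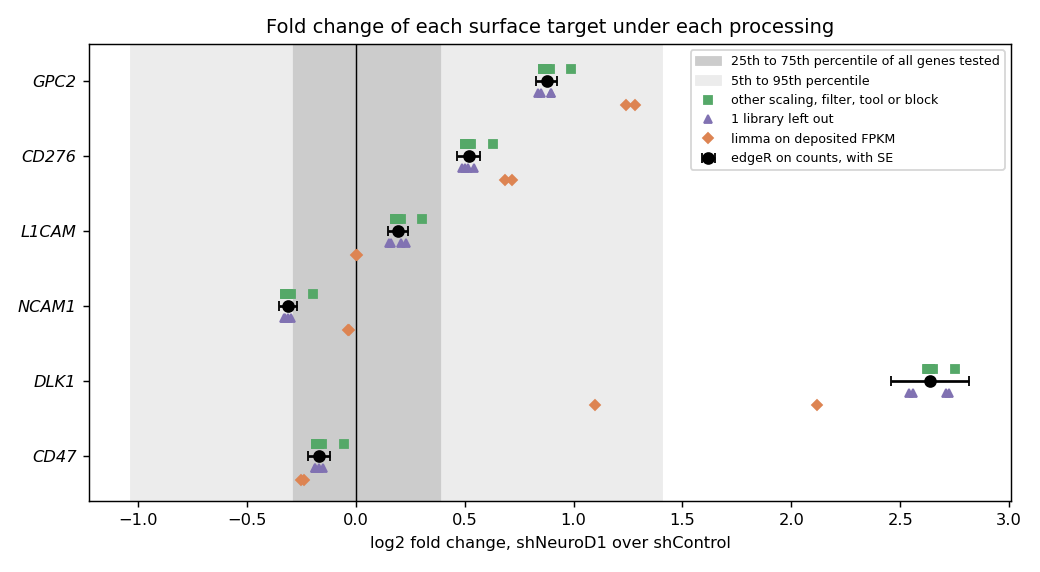
log2 fold change of each surface target in shNeuroD1 over shControl (x axis). Black points are the edgeR values with their SE, colored marks the alternative processings, and gray bands the ranges of all genes tested. The values from counts keep 1 sign for each gene, with CD47 reaching -0.055 under library size alone. The deposited FPKM move L1CAM to -0.00071 and 0.0050 and NCAM1 to -0.032 and -0.034, and spread DLK1 between 1.10 and 2.12.

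Set side by side per kilobase of annotated exons, the targets held different ranks before and after knockdown. In shControl the order was NCAM1 (27.1 ± 0.28 CPM per kilobase, SD, n = 2), GPC2 (25.2 ± 0.77), L1CAM (23.7 ± 0.52), CD47 (14.8 ± 0.12), CD276 (13.3 ± 0.085) and DLK1 (0.423 ± 0.039). No neighbors in this order overlapped. In shNeuroD1 the order was GPC2 (46.2 ± 0.95), L1CAM (27.2 ± 1.04), NCAM1 (21.9 ± 0.25), CD276 (19.0 ± 0.52), CD47 (13.2 ± 0.26) and DLK1 (2.65 ± 0.19). Among the 17303 tested genes with a length, GPC2 went from the 89.8th to the 96.0th percentile, CD276 from the 78.7th to the 87.3th and DLK1 from the 11.2th to the 38.1th. DLK1 thus remained the lowest of the targets despite its change.

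The deposited FPKM had wider replicates and another order of the targets after knockdown. GPC2 was again highest and DLK1 lowest, but CD276 stood above L1CAM, and the mean of L1CAM was lower than in shControl. Mean summed FPKM in shControl were 24.6 ± 1.31 for NCAM1, 19.2 ± 6.34 for GPC2, 18.8 ± 10.2 for L1CAM, 15.2 ± 0.73 for CD47, 14.7 ± 3.23 for CD276 and 0.336 ± 0.060 for DLK1 (SD, n = 2). Every neighboring pair in this order overlapped except CD276 and DLK1, and the highest GPC2 control exceeded the lowest NCAM1 control. In shNeuroD1 the means were 45.8 ± 5.91 for GPC2, 24.2 ± 4.35 for CD276, 24.0 ± 0.95 for NCAM1, 17.4 ± 0.26 for L1CAM, 12.8 ± 0.49 for CD47 and 2.04 ± 1.44 for DLK1. The summed starts behind these means fell below single exon forms of NCAM1 and of L1CAM in both shNeuroD1 libraries. Over 9104 genes, the median difference between the replicates of a group was 0.21 on the log2 scale in FPKM and 0.074 in CPM for shControl, and 0.20 and 0.060 for shNeuroD1.

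**Figure D4:**
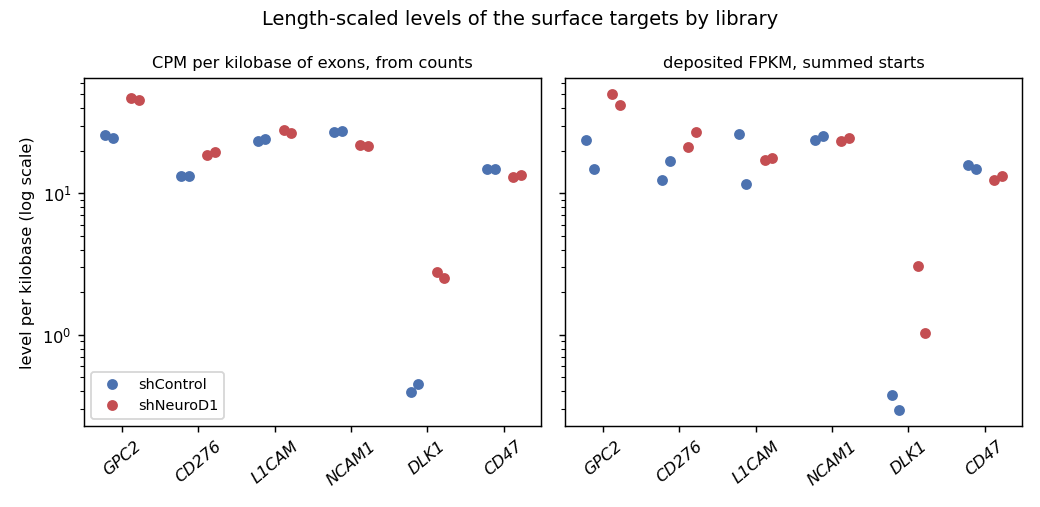
Level per kilobase (log axis) of each surface target in each library, from the counts (left, CPM per kilobase of exons) and from the deposited FPKM summed over transcript starts (right). Replicates nearly coincide on the left and spread on the right, as for L1CAM in shControl at 26.04 and 11.6 FPKM, and GPC2 is the highest target in both shNeuroD1 libraries on both scales.

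Other surface molecules considered for therapy of neuroblastoma or other tumors were also examined. Of 33 such genes, 25 were tested, 11 were higher and 10 lower (median log2 0.033). SSTR2, the somatostatin receptor bound by radiolabelled peptides, had 8696 and 9640 reads in shControl and 734 and 709 in shNeuroD1. SSTR2 was thus left at 7.92% of control (log2 -3.66, SE 0.050, adjusted p = 6.4e-32). NGFR, the low-affinity neurotrophin receptor, had 1269 and 1374 reads against 69 and 61 (log2 -4.33, SE 0.097), and the receptor tyrosine kinase KIT 692 and 702 against 243 and 288 (log2 -1.38, SE 0.088). In the other direction, the adhesion molecule CADM1 had 859 and 867 reads in shControl and 3100 and 3061 in shNeuroD1 (log2 1.84, SE 0.052, adjusted p = 6.3e-24). ALK, a kinase mutated in some neuroblastomas, rose from 35.8 to 90.4 CPM (log2 1.33), whereas SLC6A2, the transporter through which MIBG enters cells, fell from 69.6 to 39.7 CPM (log2 -0.81). FOLR1, MSLN, CEACAM5, CD33 and MET had at most 3 reads in any library.

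**Figure D5:**
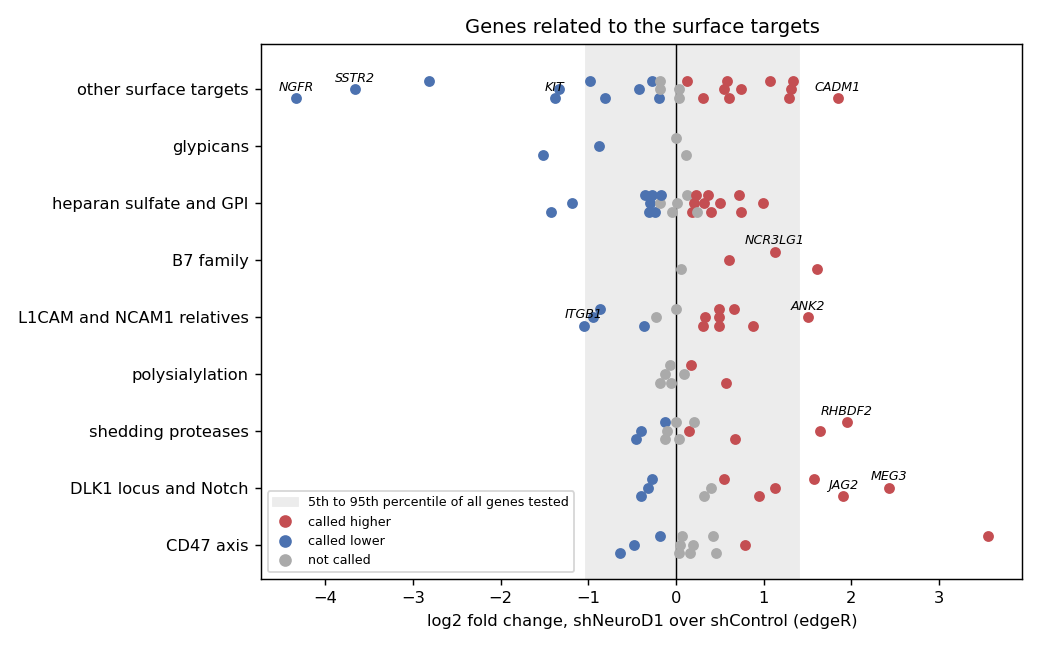
log2 fold change (x axis, edgeR) of each tested gene in 9 lists of genes related to the surface targets; red points were called higher in shNeuroD1, blue lower and gray not called, and the band holds the 5th to 95th percentile of all genes tested. Most lists have genes on both sides of 0. SSTR2 and NGFR lie farthest to the left at -3.66 and -4.33, and THBS2 lies farthest to the right at 3.56, followed by MEG3 at 2.43.

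The genes whose level over the 4 libraries was most like that of a target were found among 10560 genes of at least 10 CPM by the Euclidean distance between centred log2 CPM. They were DGCR5 and ID3 for GPC2 (distances 0.021 and 0.026), HOOK1 and NUDCD3 for CD276 (0.0076 and 0.0085), and TM7SF3 and ZSCAN18 for L1CAM (0.012 and 0.013). For NCAM1 they were ZNF131 and ACTB (0.0070 and 0.012), for CD47 SENP2 and SBDSP1 (0.0040 and 0.012), and for DLK1 SYT13 and UNC5C (0.068 and 0.15). With 4 libraries in 2 groups, such likeness mostly restates the fold change: 984 genes lay within 0.1 of CD47 and 726 of NCAM1, but 63 of GPC2 and 1 of DLK1.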

How the data were processed

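RNA was taken from IMR-32 cells with shControl (2 libraries) or shNeuroD1 (2 libraries), prepared with a poly(A) isolation module or an rRNA removal kit (the labels name both) and sequenced. The authors deposited raw read counts per Ensembl gene in 1 table and, for each library, a table of FPKM per transcript event (start, end, skipped exon, retained intron, alternative exon end) that lists only values above 0. The submitters' processing notes name cutadapt 1.9.1, HISAT2 2.0.1, HTSeq 0.6.1, DESeq2 and hg38. The annotation release, the use of strand and the tool behind the event tables are not given in the sources used here. Some skipping patterns in the deposited tables had digit separators or lost digits and were not used for matching. Events were joined across libraries by event ID and coordinates, and included and skipped forms were paired by coordinates. Events were given to the gene named in the file where it overlapped on the same strand and otherwise to the single gene there by GENCODE 29, and L1CAM, filed under a merged locus, was recovered in this way.

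From the counts, edgeR 4.0.16 (R 4.3.3) fitted all 4 libraries by quasi-likelihood after filterByExpr (minimum count 10) and TMM scaling, with Benjamini-Hochberg adjustment over the 17537 genes tested and a call at an adjusted p under 0.05. CPM used the TMM-scaled library sizes. All tests were two-sided. Starts and ends listed in all 4 libraries were tested with limma 3.58.1 on log2(FPKM + 1), which understates changes of low values. Gene FPKM is the sum over listed starts. DESeq2 1.42.0, other scalings and filters, the replicate number, leaving out each library and limma on FPKM were alternatives. The fits were tested on simulated data. Counting error alone limits precision at 31 to 38 reads for DLK1 in shControl and less at 4210 or more for NCAM1.

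The members and the related lists were chosen with earlier results of these data known. Named genes were the targets, NEUROD1, up to 4 genes of each related list with the largest log2 fold change beyond 1 and a mean of at least 10 CPM, the direct partners SIRPA, QPCTL, MDK, ST8SIA2, ST8SIA4, ADAM10, ADAM17, MEG3 and DLK2, and the 2 genes nearest to each target, and other genes were named after their values were seen. RefSeq promoter windows were matched by symbol, and exon sequences came from GENCODE 29 transcripts.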

Additional observations from a re-analysis of the deposited data

Results flagged for a closer look

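Transcripts of CD47 lacking both tail exons, which the gene counts do not separate, were listed at a higher share in both knockdown libraries than in either control. They made up 0.106% and 0.158% of listed CD47 FPKM in shControl and 4.29% and 2.25% in shNeuroD1, so that the lowest knockdown value was 14.2 times the highest control value. The FPKM are the authors' estimates, their read support is unknown, and with 2 libraries a group the difference was not tested.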

How the results depend on the processing

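The 6 targets kept their direction and passed the threshold under DESeq2 size factors, both other count filters, DESeq2 and the replicate block. Scaling by library size alone raised the median of all genes from 0.0084 to 0.12 and the share of calls that were higher from 48.7% to 62.7%. CD47 then gave -0.055. Under limma on log2(FPKM + 1) and log2(FPKM + 0.1), with 10270 genes and wider replicates, no target passed: the values were 1.24 and 1.28 for GPC2, 0.69 and 0.72 for CD276, -0.00071 (reversed) and 0.0050 for L1CAM, -0.032 and -0.034 for NCAM1, 1.10 and 2.12 for DLK1, and -0.24 and -0.25 for CD47. Both fits called 257 and 197 genes higher and 285 and 241 lower, against 4698 and 4939 from counts. Over the 9 related lists together 46 genes were higher and 32 lower from counts, 5 and 6 in either FPKM fit.

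DESeq2 called 2767 genes higher and 3591 lower. Asking also for a log2 fold change beyond 1 left 1541 higher and 902 lower. Leaving out 1 library at a time, where the lone library is assumed to vary like the other group, gave 0.15 to 0.23 for L1CAM, -0.19 to -0.15 for CD47 and 2828 to 3860 genes called higher and 3464 to 4213 lower. Only 1 start or end passed under each event setting, with 5273 at an unadjusted p under 0.05 in the first. Gene FPKM from transcript ends gave like levels for GPC2 and CD47. It gave none for CD276, L1CAM, NCAM1 and DLK1, whose ends were not listed in every library. The other named genes, the counts in each single related list and the targets' starts and ends were also compared with their values under each alternative. Of these comparisons, 384 kept their call or size, 52 list counts moved, 29 lost and 2 gained a call, and none changed sign. Where no cause is given, the cause was not tested.

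With the replicate number as a block, the log2 fold changes were 0.88 for GPC2, 0.52 for CD276, 0.19 for L1CAM, -0.31 for NCAM1, 2.64 for DLK1 and -0.17 for CD47, and 4748 genes were higher and 5000 lower. The block changed no call among these. Libraries sharing a number shared no deviation (correlation 0.016), so the numbers were not taken as a pairing.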

Other observations

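Some forms of the surface targets were listed at high levels in 1 library only. A CD276 start inside the gene, chr15:73699640-73699718, was listed at 0.0690 and 1.82 FPKM in shControl, was not listed in shNeuroD1 replicate 1, and reached 16.7 FPKM in shNeuroD1 replicate 2, where the usual start at chr15:73684269-73684460 had 10.3 FPKM. The L1CAM intron chrX:153863379-153863477, beside the 12-base exon, was listed as retained at 3.27 FPKM in shControl replicate 1 and 2.56 FPKM in shNeuroD1 replicate 1, was not listed in shControl replicate 2, and reached 19.98 FPKM in shNeuroD1 replicate 2. The last value exceeds the 17.6 FPKM summed over the L1CAM starts in that library. GPC2 transcripts with the longer last exon chr7:100169606-100171678 were listed at 5.29 FPKM in shNeuroD1 replicate 1, at 0.141 and 0.217 FPKM in shControl, and not in shNeuroD1 replicate 2. These values rest on single libraries and were not tested.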
